A study of Mus musculus with 6 samples.

Results

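The 10 genes Mpo, Elane, Ltf, Lcn2, Camp, Ngp, S100a8, S100a9, Retnlg, and Chil3, which encode granule proteins, alarmins, and secreted proteins of neutrophils, were examined in IWAT (inguinal white adipose tissue). They were found by gene symbol in the deposited table, where each of the 10 matched 1 of 55491 entries, and all 10 reached 10 counts in each library, so that none was lost to a filter on low counts. The genes were chosen by name with their levels and log2 fold changes between the genotypes already known, and their genotype differences are therefore given as a description, without a test. IWAT came from 4-week-old male C57BL/6J mice on regular chow, 3 wild type for Ebf2 (Ebf2+/+) and 3 carrying the nonsense knock-in on 1 allele (Ebf2 p.E165X/+, hereafter E165X/+), with 1 bulk RNA-seq library per mouse. The knock-in allele was made with CRISPR/Cas9 in hybrid zygotes, bred to C57BL/6J, and is carried in the germ line, so that leukocytes and their precursors have the same genotype as adipocytes. Library totals ran from 106820505 to 135039488 counts. Values are given as CPM, the count of a gene relative to a library size scaled by TMM, a normalization of edgeR that sets the bulk of genes level between libraries. Adipocyte markers were present in every library, with a summed level of 10018 to 17409 CPM over the 7 genes listed, and none of the 7 was at 0.

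Neutrophils store their proteins in granules that form in sequence while the cell matures in the bone marrow. Primary (azurophilic) granules are filled first, with myeloperoxidase (Mpo) and neutrophil elastase (Elane). Secondary (specific) granules follow, with lactoferrin (Ltf), which binds iron, lipocalin 2 (Lcn2), which binds bacterial siderophores, the cathelicidin precursor (Camp), and neutrophilic granule protein (Ngp). Transcription of these granule genes is largely shut off in mature neutrophils, whereas S100a8 and S100a9, the subunits of calprotectin, remain abundant in their cytosol and act as alarmins once released. Retnlg encodes a resistin-like protein of myeloid cells, and Chil3 encodes the chitinase-like protein Ym1, which macrophages can also make. Lcn2 can also be made by adipocytes and epithelial cells, and Ltf by glandular epithelium. In bulk tissue, fewer cells of a type and less RNA per cell cannot be told apart.

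Camp, Ngp, and Ltf lie on chromosome 9 (GENCODE M21 annotation of GRCm38), with gaps of 570129 bases between Camp (109847379 to 109849617, minus strand) and Ngp (110419747 to 110423012, plus strand) and of 596258 bases between Ngp and Ltf (111019271 to 111042767, plus strand). S100a8 (90668978 to 90670035, plus strand) and S100a9 (90692632 to 90695721, minus strand) are neighbours on chromosome 3, 22596 bases apart, and Chil3 lies on the same chromosome from 106147554 to 106167564. The other genes are on chromosome 2 (Lcn2, 32384633 to 32388252), chromosome 10 (Elane, 79886247 to 79888215), chromosome 11 (Mpo, 87793581 to 87804413), and chromosome 16 (Retnlg, 48872621 to 48874496). The upstream sequences of the 3 genes on chromosome 9 are shown because these secondary granule genes share a chromosome and had no overlap between the genotypes, as described below. They are RefSeq sequences of GRCm38.p6, printed 5′ to 3′ on the strand of the gene and only as far as the first base of an annotated exon. Capitals mark TTGCNNAA on either strand, letters that the C/EBP family of myeloid and adipocyte transcription factors can bind.
Ltf, chr9:111019042-111019270, plus strand: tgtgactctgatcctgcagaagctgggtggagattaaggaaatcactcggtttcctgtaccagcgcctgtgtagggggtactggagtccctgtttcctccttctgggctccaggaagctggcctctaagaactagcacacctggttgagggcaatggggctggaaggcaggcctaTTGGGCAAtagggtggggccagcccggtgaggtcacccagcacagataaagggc
Ngp, chr9:110419558-110419746, plus strand: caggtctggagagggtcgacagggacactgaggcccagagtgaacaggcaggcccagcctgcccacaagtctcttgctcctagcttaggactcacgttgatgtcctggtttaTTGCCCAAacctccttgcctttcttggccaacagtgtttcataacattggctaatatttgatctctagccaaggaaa
Camp, chr9:109849618-109849706, minus strand: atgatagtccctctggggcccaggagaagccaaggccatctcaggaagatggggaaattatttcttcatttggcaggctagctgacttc
Within the 250 bases before the RefSeq start, TTGCNNAA was found for 5 of the 10 genes (Ltf, Lcn2, Ngp, S100a9, and Retnlg) and in 9.56% of 32851 such windows of the mouse genome. Ngp had a second match, from 11 to 4 bases before the start, which lies in an annotated exon and beyond the printed stretch. GAGGAA on either strand, the core of a PU.1-type motif, was found for 5 genes (Mpo, Elane, Ltf, Lcn2, and S100a8) and in 23.3% of windows. CCCNNGGG, the palindrome that EBF proteins can bind, was found for 1 gene, Ltf, from 22 to 15 bases before the start, and in 11.8% of windows. All but its first base lies in an annotated exon and beyond the printed stretch. The letters of the 3 motifs do not overlap each other in these windows. These matches describe the sequence and show no binding.

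All 10 genes had a positive log2 fold change in E165X/+ against Ebf2+/+ IWAT, with a median of 0.49 and a range of 0.062 (Retnlg) to 0.75 (Ltf). The median over the 18905 genes that reached 10 counts in each library was 0.025, and 56.1% of those genes had a positive value, as did 52.1% of all genes tested. For 5 genes (Ltf, Lcn2, Camp, Ngp, and Chil3) every E165X/+ library lay above every Ebf2+/+ library, as did 6.66% of the 18905 genes, while 6.78% lay wholly below. With edgeR's quasi-likelihood test over 32664 genes, an adjusted P under 0.05 and a linear fold change above 1.5, 0 of the 10 genes and 0.00918% of all genes were called (0.00612% as higher in E165X/+). An unadjusted P under 0.05 was reached by 5 of the 10 and by 4.77% of all genes. DESeq2 called 1 of the 10, Ltf, and 0.3% of all genes (0.0367% as higher in E165X/+), and limma-voom called none of the 10. In DESeq2, Chil3 had a lower adjusted P (0.0124) than Ltf (0.0342), but its log2 fold change of 0.579 fell just short of the fold threshold. Because the genes were proposed with this contrast known, nothing is read from these counts.

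**Figure D1:**
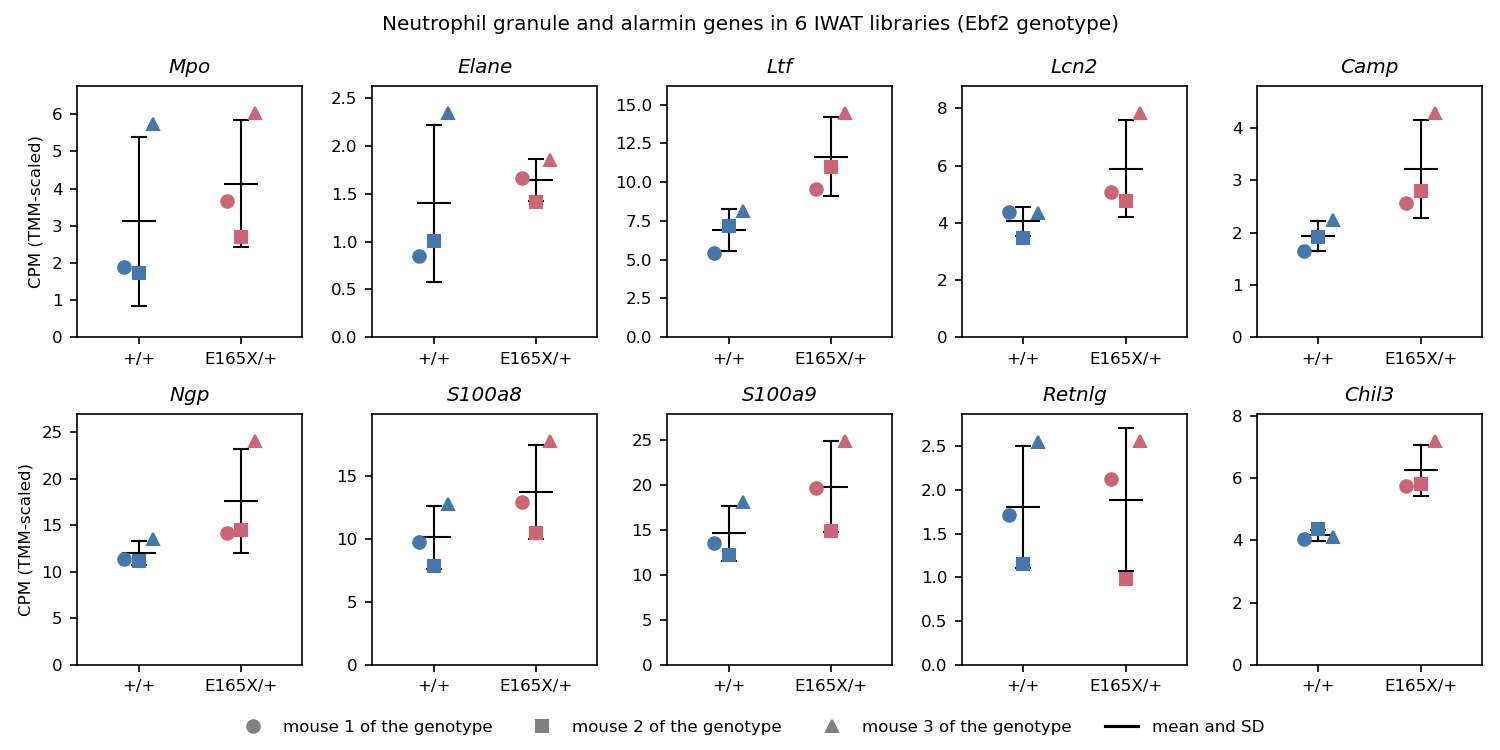
CPM of each gene (y axis, linear from 0) in the 3 Ebf2+/+ and 3 E165X/+ mice, with a symbol for each mouse and the mean ± SD in black. The E165X/+ values of Ltf, Lcn2, Camp, Ngp, and Chil3 all sit above the Ebf2+/+ values, while Mpo, Elane, S100a8, S100a9, and Retnlg overlap.

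The secondary granule genes were higher in each E165X/+ library than in any Ebf2+/+ library. Ltf was at 5.43, 7.15, and 8.13 CPM in the Ebf2+/+ libraries and at 9.52, 10.96, and 14.5 CPM in the E165X/+ libraries, in the order of mouse number, as in all that follows. The means were 6.90 ± 1.37 and 11.6 ± 2.54 CPM (SD, n = 3 mice), a log2 fold change of 0.75 (SE 0.21). The genotypes did not overlap, and came closest between the third Ebf2+/+ and the first E165X/+ library. Camp was at 1.66, 1.92, and 2.24 CPM in Ebf2+/+ and 2.57, 2.80, and 4.29 CPM in E165X/+ libraries (log2 fold change 0.73, SE 0.25). Its libraries stood in the same order as those of Ltf. Ngp was at 11.4, 11.2, and 13.5 CPM in Ebf2+/+ and 14.2, 14.5, and 24.1 CPM in E165X/+ libraries (log2 fold change 0.55, SE 0.21). Lcn2 was at 4.36, 3.46, and 4.32 CPM in Ebf2+/+ and 5.08, 4.76, and 7.84 CPM in E165X/+ libraries (log2 fold change 0.54, SE 0.22). For Ngp and Lcn2, the first and second E165X/+ libraries were only slightly above the highest Ebf2+/+ library, and the third stood far above both. Summed over the 4 genes, the level was 24.9 ± 2.87 CPM in Ebf2+/+ and 38.3 ± 10.7 CPM in E165X/+ mice. The third E165X/+ library alone reached 50.7 CPM, while the other E165X/+ libraries were at 31.3 and 33.1 CPM and the highest Ebf2+/+ library was at 28.2 CPM.

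The levels of the primary granule genes overlapped between the genotypes. Mpo was at 1.88, 1.74, and 5.73 CPM in the Ebf2+/+ libraries and at 3.67, 2.69, and 6.03 CPM in the E165X/+ libraries (log2 fold change 0.41, SE 0.51). Elane was at 0.849, 1.01, and 2.35 CPM in the Ebf2+/+ libraries and at 1.67, 1.42, and 1.86 CPM in the E165X/+ libraries (log2 fold change 0.23, SE 0.39). Both genes were high in the third Ebf2+/+ library, which had the highest Elane level of all 6 and an Mpo level close to the highest, and low in the first and second. The counts of these libraries, 102, 106, and 291 for Elane, had exact Poisson 95% intervals of 83.2 to 124, 86.8 to 128, and 258 to 326, which cover counting error only, so that the gap between the third Ebf2+/+ library and the others exceeded counting error. Mpo and Elane together had 0.287 counts per count of the 4 secondary granule genes in the third Ebf2+/+ library. In the first and second Ebf2+/+ libraries this ratio was 0.120 and 0.116, and in the E165X/+ libraries it was 0.170, 0.124, and 0.156. The ratio is formed within a library and does not depend on scaling between libraries.

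The alarmin genes lay between these patterns. S100a8 was at 9.76, 7.87, and 12.8 CPM in Ebf2+/+ and 12.96, 10.5, and 17.8 CPM in E165X/+ libraries (log2 fold change 0.44, SE 0.24). S100a9 was at 13.6, 12.2, and 18.1 CPM in Ebf2+/+ and 19.7, 14.9, and 24.96 CPM in E165X/+ libraries (log2 fold change 0.44, SE 0.21). For both genes the genotypes overlapped, because the second E165X/+ library fell below the third Ebf2+/+ library. The S100a9 count was 1.39 to 1.55 times the S100a8 count in every library, a narrow range for the genes of proteins that pair with each other. The counts of secondary granule genes per alarmin count were 0.978, 1.18, and 0.912 in Ebf2+/+ and 0.960, 1.302, and 1.18 in E165X/+ libraries, and these ranges overlapped.

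Retnlg and Chil3 followed different patterns. Retnlg was at 1.71, 1.16, and 2.54 CPM in Ebf2+/+ and 2.12, 0.977, and 2.56 CPM in E165X/+ libraries (log2 fold change 0.062, SE 0.41). Its lowest and highest values were both in E165X/+ libraries. Chil3 was at 4.04, 4.36, and 4.10 CPM in Ebf2+/+ and 5.75, 5.82, and 7.21 CPM in E165X/+ libraries (log2 fold change 0.59, SE 0.15). It had the smallest SE of the 10 genes, and its SD among Ebf2+/+ mice was 0.174 CPM. Chil4, a close relative of Chil3 whose reads could be confused with it, had at most 5 counts in any library, against at least 460 for Chil3.

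**Figure D2:**
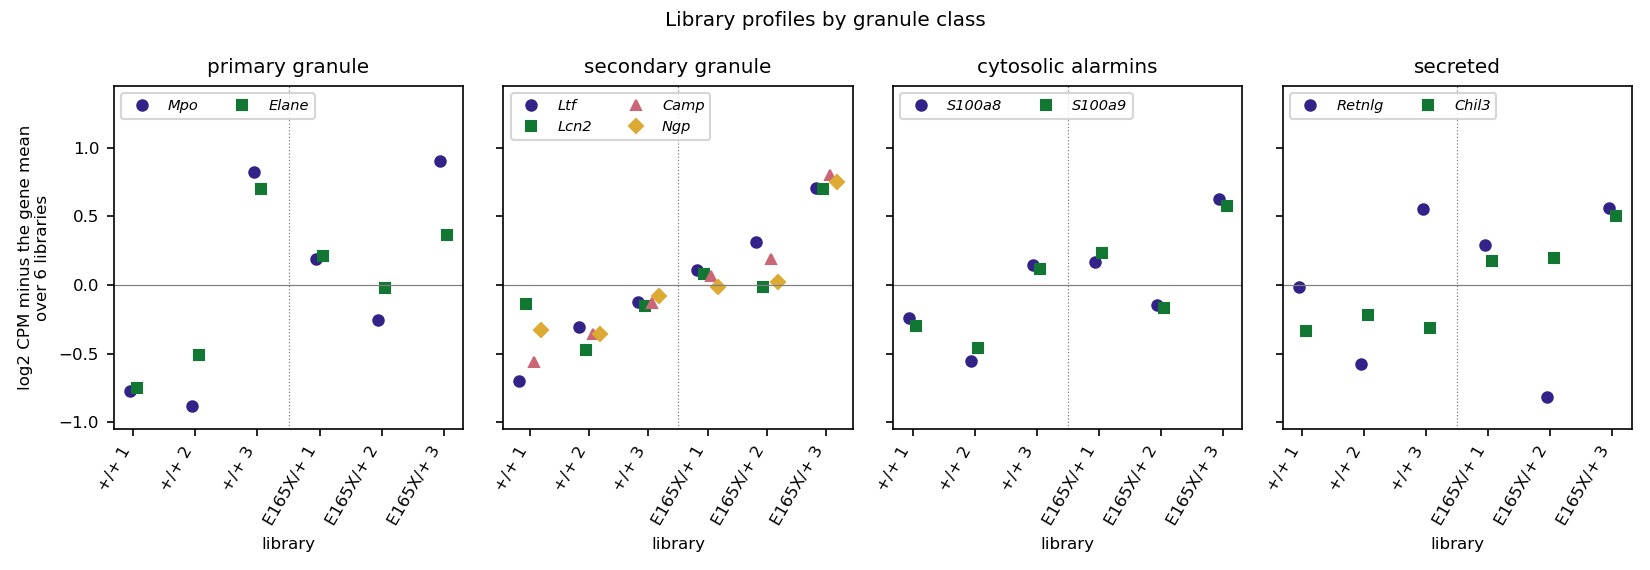
Log2 CPM of each gene minus its own mean over the 6 libraries (y axis), by library (x axis) and granule class. The primary granule genes are high in the third library of both genotypes, the secondary granule genes are highest in the third E165X/+ library and lie above the Ebf2+/+ libraries in all E165X/+ libraries, and the 2 alarmin genes move together.

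A single E165X/+ library carried much of the difference. The third E165X/+ library had the highest level of 9 of the 10 genes (all but Elane) and the second highest of the remaining gene, whereas it was the highest library for 23.6% of those 18905 genes. At the other end, the lowest level was in the first or second Ebf2+/+ library for 9 of the 10 genes, and for Retnlg it was in the second E165X/+ library. Without the third E165X/+ library, the median log2 fold change of the 10 genes was 0.25 in place of 0.49. It was then 0.57 for Ltf, 0.47 for Camp and Chil3, 0.28 for Lcn2, 0.26 for Ngp, 0.24 for S100a9, 0.21 for S100a8, 0.14 for Elane, 0.029 for Mpo, and −0.22 for Retnlg. Without the third Ebf2+/+ library, in which Mpo and Elane were high, the log2 fold changes were 1.17 for Mpo and 0.81 for Elane. Without the first Ebf2+/+ library, the value for Elane was −0.036.

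**Figure D3:**
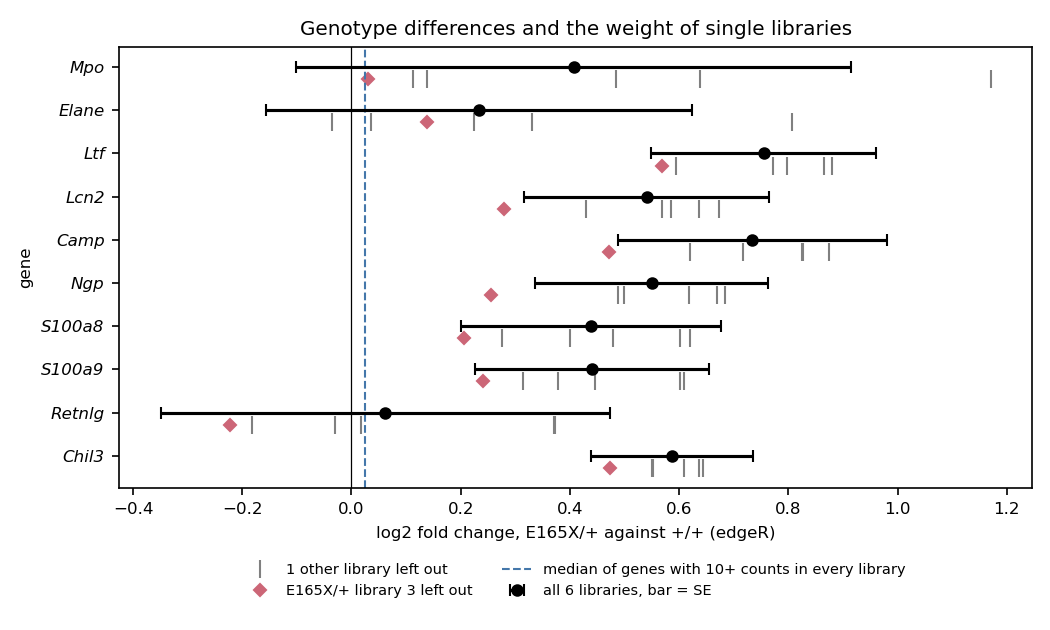
Log2 fold change in E165X/+ against Ebf2+/+ IWAT (x axis) for each gene (y axis), with the SE from edgeR (black), the values with 1 library left out (grey ticks, with the third E165X/+ library left out as red diamonds), and the median of the 18905 genes that reached 10 counts in each library (dashed, 0.025). Without the third E165X/+ library, Ltf, Camp, and Chil3 stay furthest from 0, and Retnlg is at −0.22.

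Per kilobase of annotated exon, S100a9 had the highest mean level of the 10 genes in Ebf2+/+ IWAT, at 28.04 CPM per kilobase, followed by S100a8 at 14.6 and Ngp at 9.83. Retnlg (3.04), Camp (2.55), Chil3 (2.55), Ltf (2.001), Lcn2 (1.54), and Elane (1.42) came next, and Mpo was lowest at 0.910 CPM per kilobase. In E165X/+ IWAT the first 3 and last 3 places were held by the same genes, with S100a9 at 38.0 and Mpo at 1.21 CPM per kilobase. Camp and Chil3, neighbours in this order, were at the same level in Ebf2+/+ IWAT to 3 digits. The study's methods describe 3′ mRNA libraries, in which counts do not grow with transcript length, so that the order per kilobase would not apply. The kit in the labels is from a different manufacturer, and which of the 2 holds for these libraries is not settled.

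Among the genes of 21 further lists, edgeR called 0, while 17 (10.3% of those tested, against 4.77% of all genes) had an unadjusted P under 0.05, limma-voom called 0, and DESeq2 called 1, the mast cell protease gene Mcpt4. Of the 17, 4 were mast cell and 3 erythroid genes, and markers of 1 cell type can vary together. Because the lists were also chosen with earlier results of these data known, nothing is read from this share. The 5 other genes listed with the primary granules, not all of which encode granule proteins, had a median log2 fold change of 0.39. It was 0.84 without the third Ebf2+/+ library. Ctsg, the gene of cathepsin G, had 43, 28, and 110 counts in Ebf2+/+ and 71, 49, and 90 counts in E165X/+ libraries, and was again highest in the third Ebf2+/+ library. Ms4a3, a gene of granulocyte precursors, had the largest value of this list (log2 fold change 0.80, SE 0.47, edgeR adjusted P = 0.783), at 14, 12, and 40 against 40, 29, and 50 counts. Prtn3, the gene of proteinase 3, had a log2 fold change of 0.39 (SE 0.15, edgeR adjusted P = 0.783). It was the 1 of the 5 that lay wholly above the Ebf2+/+ libraries, against 6.66% of the 18905 genes. Ctsc, which encodes the protease that activates granule proteases and is expressed well beyond neutrophils, had most of the counts of the list, and its log2 fold change was 0.061 (SE 0.12, edgeR adjusted P = 0.909).

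Of the 10 other secondary and tertiary granule genes, 9 had a positive log2 fold change, with a median of 0.15, which was 0.025 without the first and 0.37 without the third Ebf2+/+ library. Fcnb (ficolin B) had the largest, 0.94 (SE 0.35, edgeR adjusted P = 0.783), with 30, 18, and 41 counts in Ebf2+/+ and 43, 55, and 81 counts in E165X/+ libraries. Cd177, a neutrophil surface protein that is stored in specific granules, was at 1.38, 1.36, and 1.44 CPM in Ebf2+/+ and 1.87, 2.01, and 2.33 CPM in E165X/+ libraries (log2 fold change 0.57, SE 0.18, edgeR adjusted P = 0.783). These 2 of the 10 genes lay wholly above the Ebf2+/+ libraries, against 6.66% of the 18905 genes. Hp (haptoglobin), which adipocytes also express, took most of the counts, and its log2 fold change was 0.14 (SE 0.19, edgeR adjusted P = 0.857).

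The 18 genes of mature neutrophils had a median log2 fold change of 0.098, with 13 positive and 5 negative, and 1 gene, the receptor gene Trem3, lay wholly above, a share near the 6.66% of the 18905 genes. This median was 0.022 without the second Ebf2+/+ library and 0.21 without the third Ebf2+/+ or the second E165X/+ library. Csf3r, the receptor for granulocyte colony-stimulating factor, was at 8.98, 8.06, and 12.6 CPM in Ebf2+/+ and 13.8, 8.97, and 11.8 CPM in E165X/+ libraries (log2 fold change 0.22, SE 0.21, edgeR adjusted P = 0.783). The defining surface marker Ly6g had 27, 10, and 26 counts in Ebf2+/+ and 26, 47, and 40 counts in E165X/+ libraries (log2 fold change 0.78, SE 0.40, edgeR adjusted P = 0.783), the largest value of the list on very few counts. The summed level of the 18 genes was 114 ± 14.3 CPM in Ebf2+/+ and 118 ± 9.69 CPM in E165X/+ mice, and the gene with the most counts over the 6 libraries was Mxd1, a repressor of the MYC network that other cells also express. In the third E165X/+ library, where 9 of the 10 genes were highest, this sum was 115 CPM and lay below that of the third Ebf2+/+ library, 129 CPM. The sum is weighted to abundant genes, here Mxd1 (34.1 CPM in the third Ebf2+/+ and 30.9 CPM in the third E165X/+ library) and Wfdc21 (23.3 and 22.5 CPM). Asprv1 was at 7.73 and 2.15 CPM in these libraries, whereas Ly6g (0.210 and 0.312 CPM) and Trem3 (0.403 and 0.546 CPM) were higher in the E165X/+ library. The sum is therefore no measure of neutrophil content.

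Regulators, attractants, and partners of these proteins had values of both signs. The 6 transcription factors had a median of 0.16, which was 0.089 without the first Ebf2+/+ library. Among them, Cebpe, which drives secondary granule genes, had the largest value (log2 fold change 0.42, SE 0.27, edgeR adjusted P = 0.783) on 34 to 83 counts. Runx1, a regulator of blood cell formation, was higher in each E165X/+ library (log2 fold change 0.25, SE 0.096, edgeR adjusted P = 0.783), and Cebpa, which is abundant in adipocytes, was lower in each E165X/+ library (−0.23, SE 0.12, edgeR adjusted P = 0.783). Thus 1 of the 6 lay wholly above and 1 wholly below the Ebf2+/+ libraries, against 6.66% and 6.78% of the 18905 genes. The 12 attractants and growth factors had a median of 0.18. It was 0.10 with edgeR fitted only to genes reaching 10 counts in each library, and 0.28 with limma-voom. Cxcl12 led them in counts (log2 fold change 0.19, SE 0.11, edgeR adjusted P = 0.783), the platelet chemokine gene Ppbp had the largest value among those reaching 10 counts in each library (0.67, SE 0.68, edgeR adjusted P = 0.783), and Csf3, which encodes the growth factor of neutrophils, had at most 5 counts in a library. The 4 receptors for the proteins had a median of −0.011, which was 0.071 without the third and −0.081 without the first E165X/+ library, with Ager, a receptor for the S100 alarmins, at 0.35 (SE 0.18, edgeR adjusted P = 0.783) and Lrp1, a receptor for lactoferrin, at −0.015 (SE 0.14, edgeR adjusted P = 0.995). Serpinb1a, an inhibitor of neutrophil elastase, was at 31.7, 35.3, and 38.4 CPM in Ebf2+/+ and 39.4, 45.2, and 50.4 CPM in E165X/+ libraries (log2 fold change 0.36, SE 0.11, edgeR adjusted P = 0.783).

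Relatives of the genes and adipocyte genes with which Lcn2 is often measured had negative medians, of which that of the paralogs turned with the library left out. The 12 other S100 genes had a median log2 fold change of −0.17, or −0.10 without the third Ebf2+/+ library, and 9 were negative. S100a11 had the most counts (−0.12, SE 0.14, edgeR adjusted P = 0.811), S100a14 the largest value in size among those reaching 10 counts in each library (−1.31, SE 1.39, edgeR adjusted P = 0.790), and S100a1 and S100a13 lay wholly below the Ebf2+/+ libraries, against 6.78% of the 18905 genes. The 7 acute phase genes had a median of −0.54, which was −0.31 over those reaching 10 counts in each library, −0.32 without the third E165X/+ library, −0.22 without the first Ebf2+/+ library, and −0.15 without the third. Among them were Steap4 at −0.31 (SE 0.25, edgeR adjusted P = 0.783), Orm2 at −0.62 (SE 0.49, edgeR adjusted P = 0.783), and Saa3, an acute phase gene of adipocytes and macrophages, at −0.071 (SE 0.40, edgeR adjusted P = 0.975). The 10 paralogs had a median of −0.050, with a range from −0.23 without the second Ebf2+/+ library to 0.15 without the second E165X/+ library. Among them, transferrin (Trf) had the most counts (−0.061, SE 0.19, edgeR adjusted P = 0.944), Chil1 the largest value by the same limit (0.62, SE 0.39, edgeR adjusted P = 0.783), and the adipocyte gene Retn was at −0.42 (SE 0.23, edgeR adjusted P = 0.783).

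Markers of other cell types that the tissue could hold were measured in the same libraries. The 11 monocyte and macrophage genes summed to 1993, 1540, and 1983 CPM in Ebf2+/+ and 1986, 1898, and 2090 CPM in E165X/+ libraries, with Lyz2 as the most abundant gene and none at 0. Erythroid genes, led by Hbb-bs, summed to 3084, 2143, and 3330 CPM in Ebf2+/+ and 4594, 2581, and 2014 CPM in E165X/+ libraries, so that the library with the highest summed level of the 10 genes had the lowest erythroid sum. Platelet genes, led by Pf4, summed to 38.2 to 49.0 CPM over the 6 libraries. Eosinophil genes, led by Ear2, summed to 14.4 to 19.1 CPM. The summed level of the 6 mast cell genes was 96.0, 80.2, and 103 CPM in Ebf2+/+ and 122, 113, and 124 CPM in E165X/+ libraries, higher in every E165X/+ library. Of these genes, 4 (Cpa3, Mcpt4, Tpsb2, and Ms4a2) lay wholly above, against 6.66% of the 18905 genes, whereas Kit, which had the most counts, overlapped (log2 fold change −0.068, SE 0.10, edgeR adjusted P = 0.864). Mcpt4 had a log2 fold change of 0.60 (SE 0.087, edgeR adjusted P = 0.229).

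Lymphoid genes were lowest in the first Ebf2+/+ library. B cell genes, led by Ighd, summed to 465, 739, and 746 CPM in Ebf2+/+ and 764, 851, and 805 CPM in E165X/+ libraries, and 5 of 7 lay wholly above, against 6.66% of the 18905 genes. T cell genes, led by Lck, summed to 243, 319, and 324 against 339, 379, and 321 CPM, and lymph node stroma genes, led by Glycam1, to 503, 520, and 508 against 638, 603, and 514 CPM. None of the B cell, T cell, mast cell, eosinophil, platelet, or erythroid markers was at 0 in all libraries, and for Ccl21a and Ccl19 a second entry of the table was at 0 throughout. Among genes reaching 10 counts in each library, those with the largest log2 fold change in size of their list included Cd14 (−0.27), Il5ra (0.45), Ms4a2 (0.78), Klf1 (1.33), Gp1bb (−0.53), Lck (0.27), and Ccl21a (0.37), each with an edgeR adjusted P of 0.783. The part of these cells in the granule gene levels was not tested.

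The third E165X/+ library differed from the others in tissue markers also. Its 8 skeletal muscle genes, led by Myh4, summed to 44970 CPM, against 764 to 7629 CPM in the other 5 libraries, and its adipocyte sum, led by Lpl, was the lowest at 10018 CPM. The largest values of these lists were those of Acta1 (log2 fold change 2.13, SE 1.299) and Pparg (−0.42, SE 0.26), both with an edgeR adjusted P of 0.783. Without the third E165X/+ library, the median log2 fold change went from 1.98 to −1.051 for the muscle genes and from −0.28 to −0.15 for the adipocyte genes. The epithelial sum, led by Krt5, was 80.3, 6.41, and 42.8 CPM in Ebf2+/+ and 35.4, 6.47, and 14.8 CPM in E165X/+ libraries, so it was highest where Ltf was lowest. Within this list the genes differed, as Krt8, Krt18, and Krt19 were at 2.25, 1.01, and 6.28 CPM in the third E165X/+ library and at most 0.302, 0.237, and 3.30 CPM in the others, whereas the epithelial adhesion genes Epcam and Cdh1 were at 1.31 and 2.63 CPM there, within their ranges of 1.03 to 1.98 and 2.38 to 7.44 CPM in the other libraries. Slpi, a protease inhibitor of neutrophils and of epithelium, was at 9.49 CPM there and at 1.35 to 1.76 CPM in the other 5 libraries. These single epithelial genes were picked out after their values were seen, and the part of muscle or epithelium in the granule gene levels was not tested.

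**Figure D4:**
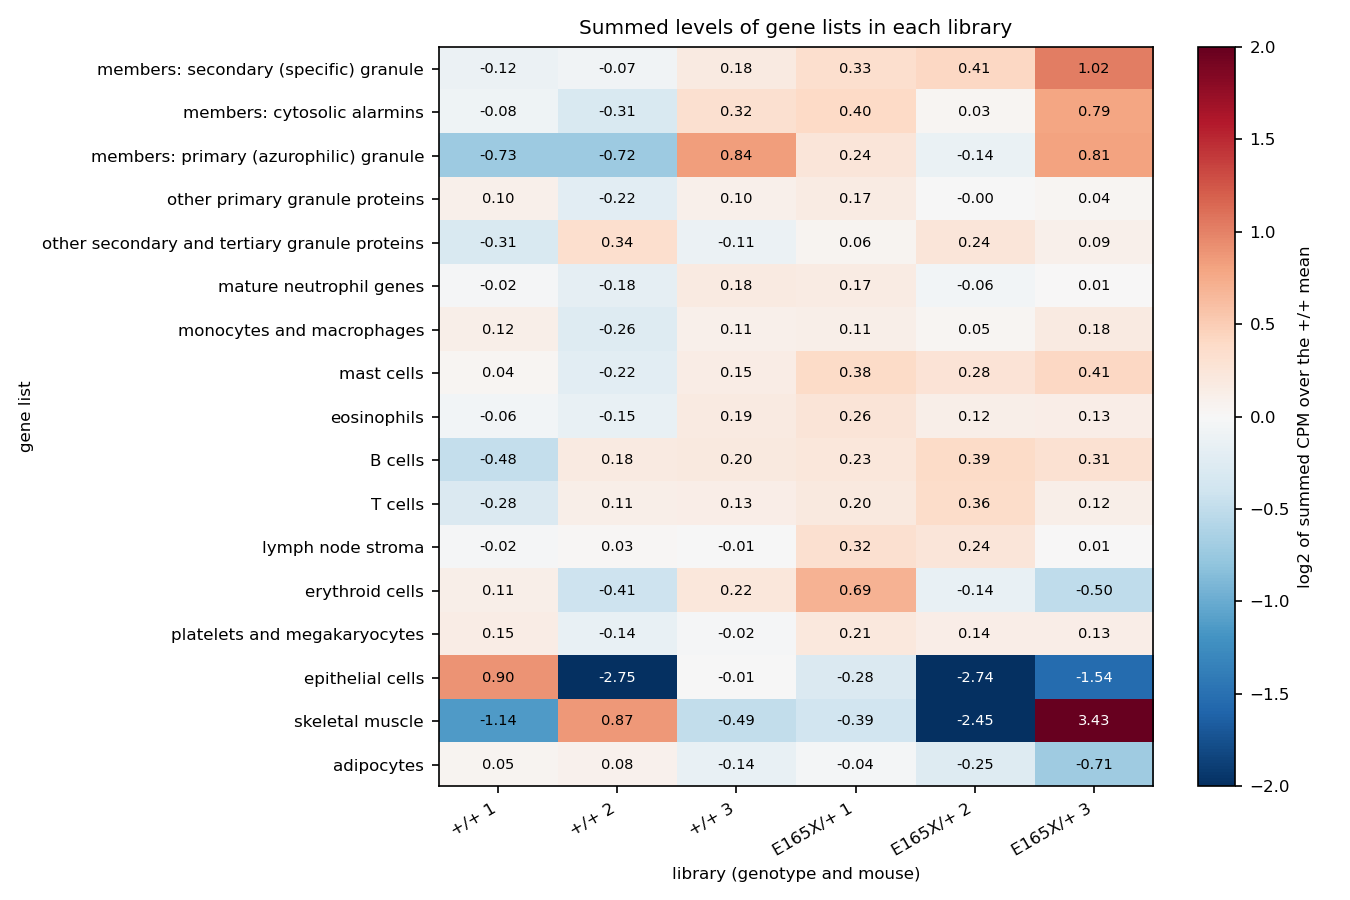
Log2 of the summed CPM of each gene list (rows) in each library (columns) relative to the mean of the 3 Ebf2+/+ libraries, with colours limited to 2 in each direction. The third E165X/+ library stands out for secondary granule genes (1.02) and skeletal muscle genes (3.43). The sum of the mature neutrophil genes, weighted to Mxd1 and Wfdc21, stays between −0.18 and 0.18 in all libraries.

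Genes with the most similar library profiles were found by the mean absolute difference of log2 CPM, each gene centred on its own mean, among 18904 other genes over the 6 libraries. Camp was the second closest gene to Ltf, at a difference of 0.077, after Syne4 (0.058), which was also the closest gene to Camp (0.061). The median difference from Ltf over all genes was 0.39. S100a8 and S100a9 were each the second closest to the other, at 0.054, after the predicted genes Gm47322 (0.052) and D130019J16Rik (0.043), both of which were at 0.281 CPM or less in each library. For Mpo, Ctsg was the second closest at 0.16 after Cabcoco1 (0.12), and for Chil3, Cd177 was among the 3 closest at 0.059. The closest genes to Lcn2 were Fgf9 (0.039), Mirg (0.054), and A830082N09Rik (0.058), to Ngp Cyp8b1 (0.064), Zfp987 (0.069), and Tgfb3 (0.082), to Elane Gm17971 (0.054), Sik1 (0.073), and E230001N04Rik (0.11), and to Retnlg Pax1 (0.096), Gm38021 (0.12), and Gm44694 (0.12). The third places were taken by 5830418P13Rik for Ltf and Camp (0.085 and 0.075), AC154542.1 for Mpo (0.18), Gm12655 for S100a8 (0.069), Gm47322 for S100a9 (0.062), and Gm46432 for Chil3 (0.060), with Gm48420 second for Camp (0.068). With 6 libraries and many genes, close profiles arise often, and they are given as a description.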

How the data were processed

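The authors deposited expected counts, that is, estimated numbers of fragments per gene, for 6 mouse IWAT libraries, 1 per mouse, not scaled for library size. The submitters' processing notes name cutadapt 4.8, FastQC 0.11.8, STAR 2.7.8a, RSEM 1.3.3, and MultiQC 1.20 with GRCm38, without roles. All 332946 values were whole numbers, so rounding changed none. Differential expression was tested by edgeR 4.0.16 under R 4.3.3 (TMM factors, glmQLFit, glmQLFTest, genotype as the only term), with genes of at least 1 count in any library, Benjamini-Hochberg adjustment over all 32664 of them, and calls where the adjusted P was below 0.05 and the fold exceeded 1.5. SEs are the log2 fold change divided by the square root of the test statistic. Log2 CPM used a prior count of 2. DESeq2 1.42.0 and limma-voom (limma 3.58.1) were alternatives, along with other scaling, filters, a replicate block, and each library left out in turn. The tests were tried on simulated counts in which 200 genes changed by a log2 fold change of 2. Smaller changes were not simulated, so the trial does not cover changes of the size seen for the 10 genes. Named were the 10 genes, and of each list the gene with the most counts, the largest change among genes reaching 10 counts in each library, any called gene, and the 3 closest profiles per gene. Some genes that this rule names are not reported here. Other listed genes (Prtn3, Trem3, Wfdc21, Asprv1, Runx1, Csf3r, Csf3, S100a1, S100a13, Saa3, Retn, Cpa3, Tpsb2, Chil4, Ccl19, Krt8, Krt19, Epcam, and Cdh1) were chosen after their values were seen. The genes, lists, and motifs were chosen with earlier results of these data known. Promoters (10 of 10 matched by symbol) came from RefSeq, GRCm38.p6, and locations from GENCODE M21, which holds 55141 of the 55491 identifiers. Protein sequences were not used here. Python 3.11.15, pandas 2.3.3, and matplotlib 3.10.9 were used for sequences and plots.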

Additional observations from a re-analysis of the deposited data

How the results depend on the processing

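With 3 mice per genotype, 1 library can decide a value. The smallest count of any of the 10 genes was 102 (exact Poisson 95% interval 83.2 to 124, counting error only), and several genes of the other lists had fewer than 10 counts in some library. The median log2 fold change of the 10 genes, 0.49, was 0.48 with DESeq2, 0.51 with limma-voom, and 0.56 without TMM factors, and ranged from 0.25 to 0.64 with 1 library left out. The edgeR test called 3 genes over the whole table, limma-voom 4, and DESeq2 98, and with 1 library left out edgeR called 1 (without the second Ebf2+/+ library) to 11 (without the third E165X/+ library). Of the listed genes besides the 10, edgeR called 0, also with any 1 library left out, and DESeq2 called 1. With 1 library left out, the log2 fold change ranged from −0.036 to 0.81 for Elane and from −0.22 to 0.37 for Retnlg. The sign turned for Elane without the first Ebf2+/+ library (−0.036), and for Retnlg without the second Ebf2+/+ library (−0.18), the first E165X/+ library (−0.029), or the third E165X/+ library (−0.22). The cause was not tested.

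Replicate numbers are shared by the genotypes, but nothing in the labels pairs the mice, and the deviations of same-numbered libraries correlated at 0.15, −0.28, and −0.16. With a replicate block, the median of the 10 genes was 0.51 and edgeR called 2 genes, and no library correlated best with its own number.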
